A study of Mus musculus with 2 samples.

Results

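In the deposited counts of mouse forebrain, 11 rows held mainly opposite-strand counts, and each overlaps a microRNA (miRNA) gene on the other DNA strand. The 8 described here overlap known miRNA genes that were represented only through these rows, and 3 further rows were alike in this. The 8 rows were Gm25927, Gm24321, Gm24083, Gm25252, Gm25301, Gm25750, Mir299b and Gm24111, out of 1973 gene rows in all. In that order they overlap Mirlet7e, Mir409, Mir191, Mir376a, Mir378a, Mir380, Mir299a and Mirlet7f-1. They were selected on their opposite-strand counts, so their levels and strand shares are given as a description, with no test. The samples were 2 libraries of RNA shorter than 30 nt from the forebrain of healthy B6NCrl mouse embryos at day 15.5, with no treatment or genotype contrast. Replicate 1 pooled 78 embryos and replicate 2 pooled 62, males and females together, so no value belongs to 1 animal or 1 sex. Forebrain tissue mixes neurons, progenitors, glia, vessels and blood, and in such bulk samples fewer cells of a type and less RNA per cell cannot be told apart.

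A miRNA is cut from a hairpin: Drosha releases the hairpin from a longer transcript, Dicer removes its loop, and 1 arm is loaded into an Argonaute protein. The loaded strand finds messenger RNAs mainly through its seed, bases 2 to 8, and lowers their output. Because a hairpin folds back on itself, its reverse complement can often fold too. The let-7 family is known for promoting differentiation and is abundant in the developing brain. Mir379 to Mir410 is a large cluster on the maternally expressed strand of the imprinted Dlk1-Dio3 locus, and its miRNAs are prominent in neurons.

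The sequences show what each row would hold on the strand that was read. Of the 8 overlapped genes, 7 matched the RefSeq miRNA table (GRCm38.p6), and both arms of the overlapped hairpin are printed 5′ to 3′ with the seed in capitals. Mir378a was the one without a match, so its arms are not shown and were not looked for in its row. The let-7 pair comes first because its members share a seed.
let-7e-5p: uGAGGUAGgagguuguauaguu
let-7e-3p: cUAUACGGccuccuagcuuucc
let-7f-5p: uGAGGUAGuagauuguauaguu
let-7f-1-3p: cUAUACAAucuauugccuuccc
miR-191-5p: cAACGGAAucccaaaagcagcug
miR-191-3p: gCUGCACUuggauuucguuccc
miR-409-5p: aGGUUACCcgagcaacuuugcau
miR-409-3p: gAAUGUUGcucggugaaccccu
miR-376a-5p: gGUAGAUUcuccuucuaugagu
miR-376a-3p: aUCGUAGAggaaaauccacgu
miR-380-5p: aUGGUUGAccauagaacaugcg
miR-380-3p: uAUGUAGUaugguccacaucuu
The seed GAGGUAG stands in let-7e-5p, in let-7f-5p and under 9 further mature names of the table. Counted from the 5′ end of let-7e-5p, let-7f-5p differs from it by G9U and G12A, both outside the seed. No other mature name shares a seed with either arm of miR-191, miR-409, miR-376a or miR-380. The counts are per row and do not tell the arms apart.

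The row Gm25927 is shown whole because it makes the strand arrangement visible. Read 5′ to 3′ on its own strand, its 117 bases carry the reverse complement of let-7e-5p, in capitals, at positions 73 to 94.
Gm25927: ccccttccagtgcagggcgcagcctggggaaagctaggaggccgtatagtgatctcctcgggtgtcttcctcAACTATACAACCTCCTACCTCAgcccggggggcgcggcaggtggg
A read with the letters of let-7e-5p therefore lies on the opposite strand of Gm25927. The same arrangement was found for both arms of Mir409, Mir191, Mir376a, Mir380 and Mirlet7f-1 in their rows.

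Mir299b and Mir299a are the exception in sequence, since each is an annotated miRNA gene and the 2 hairpins are close to each other's reverse complement. The capitals mark the 21 bases that read the same on both strands of the Mir299a hairpin.
Mir299a: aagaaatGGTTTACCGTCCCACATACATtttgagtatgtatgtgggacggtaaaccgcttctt
Mir299b: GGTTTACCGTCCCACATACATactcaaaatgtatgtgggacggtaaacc
The reverse complement of all 49 bases of Mir299b lies within the 63 bases of Mir299a, which follows from their positions on opposite strands. In the other 7 overlapped hairpins the longest stretch that reads the same on both strands was at most 14 bases (Mirlet7f-1). At the least it was 6 bases (Mir376a). Over the 24 other pairs of a row and a miRNA gene on the other strand it ran from 5 to 25 bases, with a median of 10. The mature products of this pair likewise share most of their letters.
miR-299a-5p: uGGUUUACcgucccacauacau
miR-299b-5p: gGUUUACCgucccacauacau
miR-299a-3p: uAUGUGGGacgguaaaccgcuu
miR-299b-3p: uAUGUGGGacgguaaacc
The seed AUGUGGG is shared by miR-299a-3p and miR-299b-3p. The identifier of Mir299b has another version number in the annotation used here than in the files, so the strand the authors assigned to it is not given, and "opposite" for this row rests on the later annotation. The identifiers of the other 7 rows have the same version in both.

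The RNA counted at these 8 loci lay almost wholly on the strand of the known miRNA. Over both libraries the 8 rows held 136346 opposite-strand counts and 11 own-strand counts. Of these rows 7 had 0 own-strand counts in both libraries, and Mir299b held all 11, 6 in replicate 1 and 5 in replicate 2. Its opposite-strand share was 99.7% (95% Clopper-Pearson interval 99.5 to 99.9, which covers counting error only). Both arms of miR-299b also occur exactly in the Mir299a hairpin, so their reads can match more than 1 place and be given to no gene. How far this lowered the own-strand counts of Mir299b was not tested. None of the 8 overlapped miRNA genes has a row of its own in the tables used here, so their reads had no other row to enter. The lack of a row is not particular to them. It held for the overlapped gene in all 32 pairs of a row and a miRNA gene on the other strand. Counts set to a row's own strand leave these reads in the row for no feature: the 8 rows made up 19.2% of it in replicate 1 and 16.9% in replicate 2.

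Levels are opposite-strand counts divided by the library's total of own-strand counts over gene rows, scaled to 1000000 (CPM), so they can be set beside the ordinary miRNA levels. These totals were 4464927 in replicate 1 and 4753555 in replicate 2, and 3 counts correspond to 0.672 and 0.631 CPM. The summed level of the 8 rows was 15345 CPM in replicate 1 and 14270 CPM in replicate 2 (mean 14807 ± 760, SD, n = 2). They spanned 38.5-fold from Mirlet7e to Mirlet7f-1. All means below are over n = 2 libraries, and the labels call these biological replicates from separate pools.

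Of the let-7 pair, Mirlet7e was the highest of the 8 loci. Its row Gm25927 (chromosome 17, 17830343 to 17830459, minus strand, mm10) held 18364 opposite-strand counts in replicate 1 and 18528 in replicate 2. Mirlet7e itself lies at 17830352 to 17830444 on the plus strand, in an intron of Spaca6. Its level was 4113 CPM in replicate 1 and 3898 in replicate 2 (mean 4005 ± 152). In the own-strand profile of 1973 rows that level would rank 42nd, between Mir744 at 4110 CPM and Mir449a at 3882 CPM. Mirlet7f-1 was the lowest. Its row Gm24111 (chromosome 13, 48537825 to 48537921, plus strand) overlaps Mirlet7f-1 at 48537829 to 48537917 on the minus strand, in an exon of 6720427I07Rik, a gene on the same strand. It held 474 and 485 counts, or 106 and 102 CPM (mean 104 ± 2.92), and would rank 189th, between Mir222 and Mir183.

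The 10 other let-7 family rows were counted on their own strand and summed to 126557 CPM. With the opposite-strand rows the sum was 130667 CPM, of which the pair made up 3.14%. Mirlet7e placed 6th of the 12 loci, below Mir98 at 6114 ± 468 CPM and above Mirlet7f-2 at 3312 ± 273 CPM. Mirlet7f-1 placed 12th, below Mirlet7a-2 at 224 ± 34.1 CPM. let-7f-5p also occurs exactly in the Mirlet7f-2 hairpin, so a read of that arm can match more than 1 locus. The multi-mapping row, whose reads were given to no gene, held 44.6% of replicate 1 and 42.4% of replicate 2. The sums, places and share of the family count only reads given to a gene. The part of the multi-mapping row in them, and in the level of Mirlet7f-1, was not tested.

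Of the 8 loci, 4 belong to the Mir379 to Mir410 cluster on chromosome 12, all on its plus strand. Mir409 was the highest of them: Gm24321 (109743158 to 109743237) held 15842 and 14250 counts. Its level was 3548 CPM in replicate 1 and 2998 in replicate 2 (mean 3273 ± 389), the widest spread of the 8 at 11.9% of the mean. Mir409 lies in an intron of Mirg, the long non-coding transcript of the locus. Mir376a, read through Gm25252 (109723756 to 109723875), held 11741 and 12162 counts, or 2630 and 2559 CPM (mean 2594 ± 50.3). Mir380, read through Gm25750 (109711779 to 109711890), held 2389 and 2461 counts, or 535 and 518 CPM (mean 526 ± 12.3). Mir299a, read through Mir299b (109710645 to 109710693), held 1886 and 2044 counts, or 422 and 430 CPM (mean 426 ± 5.37). For Mir299a replicate 2 was the higher library, and for the other 7 loci replicate 1 was.

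Among 36 loci of the cluster, Mir409 placed 5th, Mir376a 6th, Mir380 15th and Mir299a 17th. The 32 rows counted on their own strand summed to 39674 CPM, and 46494 CPM with the opposite-strand rows, which made up 14.7%. Mir487b was the highest at 14700 ± 1472 CPM, and Mir369 came next at 6416 ± 463 CPM. Near neighbours differed widely in level. Mir412, 53 bases from Mir409, stood at 81.6 ± 6.53 CPM, and Mir369, 182 bases away, at 1.96 times Mir409. Mir411, 382 bases from Mir299a, stood at 3767 ± 71.2 CPM, or 8.84 times Mir299a. Mir654, 480 bases from Mir376a, had no count in either library, and Mir300 on its other side stood at 495 ± 7.37 CPM.

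**Figure D1:**
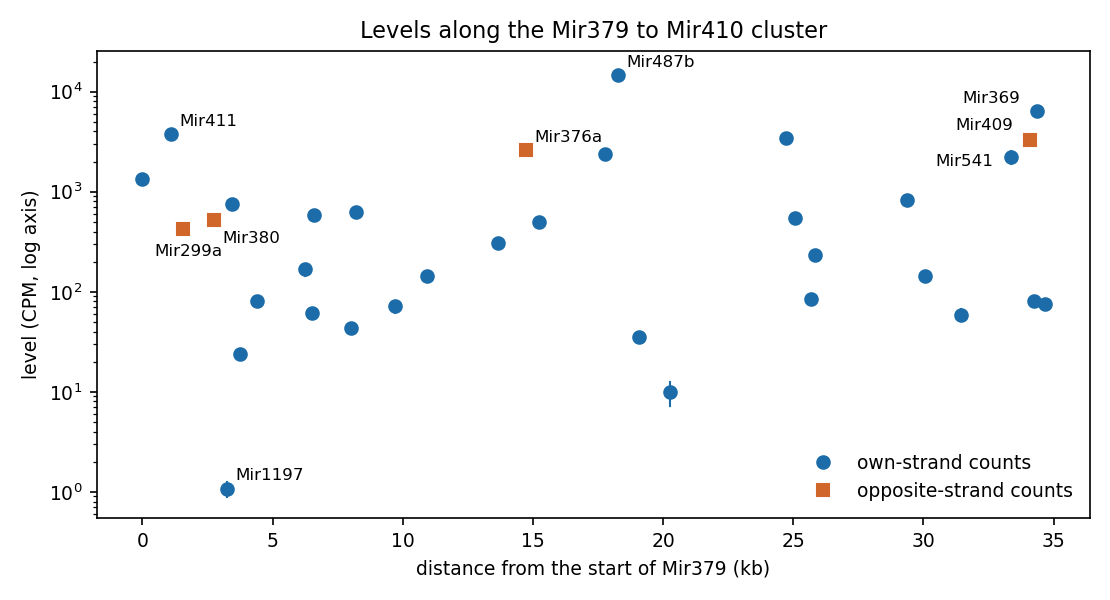
Level in CPM (log axis) of each miRNA of the Mir379 to Mir410 cluster with a count, by distance in kb from the start of Mir379; points are means of the 2 libraries, vertical lines join the library values, circles are own-strand and squares opposite-strand counts. The squares, from 426 CPM for Mir299a to 3273 CPM for Mir409, lie within the range of the circles.

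Mir191 lies 385 bases from Mir425, its partner in a small cluster on chromosome 9. Its row Gm24083 (108568295 to 108568414) overlaps Mir191 at 108568319 to 108568392 on the plus strand, in an exon of 4833445I07Rik. It held 11951 and 12593 counts, or 2677 and 2649 CPM (mean 2663 ± 19.4), the narrowest spread of the 8 relative to its level at 0.73% of the mean. Mir425, counted on its own strand, stood at 1197 ± 121 CPM, so Mir191 was 2.23 times as high. Read by own-strand counts alone the cluster summed to 1197 CPM, and with Mir191 to 3860 CPM, of which Mir191 made up 69.0%.

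Mir378a lies in an intron of Ppargc1b, the gene of a coactivator of oxidative metabolism. Its row Gm25301 (chromosome 18, 61397813 to 61397925, plus strand) overlaps Mir378a at 61397835 to 61397900 on the minus strand. It held 5866 and 5310 counts, or 1314 and 1117 CPM (mean 1215 ± 139), with a spread of 11.4% of the mean. The other Mir378 rows were far lower: Mir378c and Mir378d stood at 2.17 and 2.16 CPM and Mir378b at 0.428 CPM. These levels count only reads given to a gene. The part of multi-mapping reads in them was not tested.

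Ordered by level the loci were Mirlet7e, Mir409, Mir191, Mir376a, Mir378a, Mir380, Mir299a and Mirlet7f-1. In each adjacent pair the library values did not overlap, although with 2 libraries this is no test. The closest pair was Mir191 and Mir376a, which differed by 68.9 CPM on average, with the nearest library values 19.6 CPM apart.

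**Figure D2:**
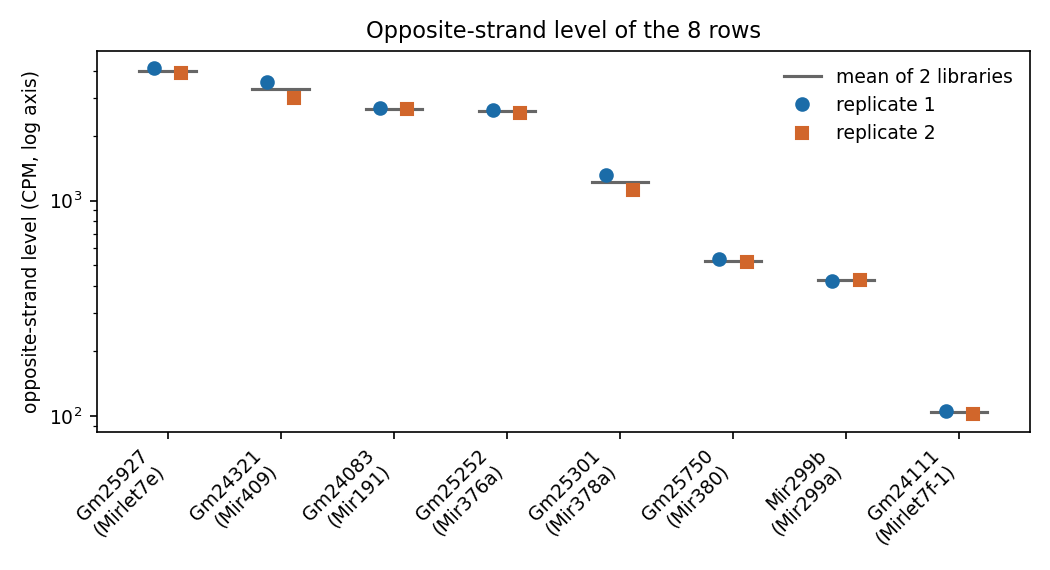
Opposite-strand level in CPM (log axis) of the 8 rows, with the overlapped miRNA gene in brackets; circles are replicate 1, squares replicate 2 and lines the mean of 2 libraries. Levels run from 4005 CPM for Mirlet7e to 104 CPM for Mirlet7f-1.

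The 8 rows were compared with the other places where a row faces a miRNA gene on the other strand. There were 32 such rows, and 11 rows of the whole table had at least 10 opposite-strand counts in each library and more than 50% of their counts on the opposite strand. All 11 were among the 32. Besides the 8 they were Mir497b, Mir142b and Gm25641, which face Mir497, Mir142 and Mir9-1 in that order. They stood at 490 ± 3.92, 188 ± 0.361 and 65.1 ± 6.17 CPM. Around the lowest of the 8, Gm24111, the next row above was Mir142b and the next below Gm25641. Below these came Mir203 at 19.1 CPM, with an opposite-strand share of 1.59%. The 8 rows held 95.1% of all opposite-strand counts in replicate 1 and 94.6% in replicate 2, and the 11 rows held 99.6% in both.

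The other 21 rows of the 32 were read on their own strand or hardly at all. Of these, 16 had at least 10 own-strand counts in each library, with opposite-strand shares from 0 to 3.90% and a median of 0.0784%. Of 354 rows that face no miRNA gene and pass the same minimum, 326 had no opposite-strand count, and the highest share was 28.1% (Mir7654, named after its value was seen). By RNAfold's minimum free energy, the strand of the overlapped gene was the more stable fold in 6 of the 8 pairs. It was so in 10 of the 24 other pairs, but most of these were not read on that strand, so the numbers are not alike. In the 3 others with mainly opposite-strand counts the energies were -41.5 against -47.1 kcal/mol for the reverse complement (Mir497), -26.9 against -26.8 (Mir142) and -41 against -33.7 (Mir9-1). Among the 8 the exceptions were Mir376a, at -16.6 against -19.1 kcal/mol for its reverse complement, and Mir299a, at -42.1 against -42.3 kcal/mol.

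**Figure D3:**
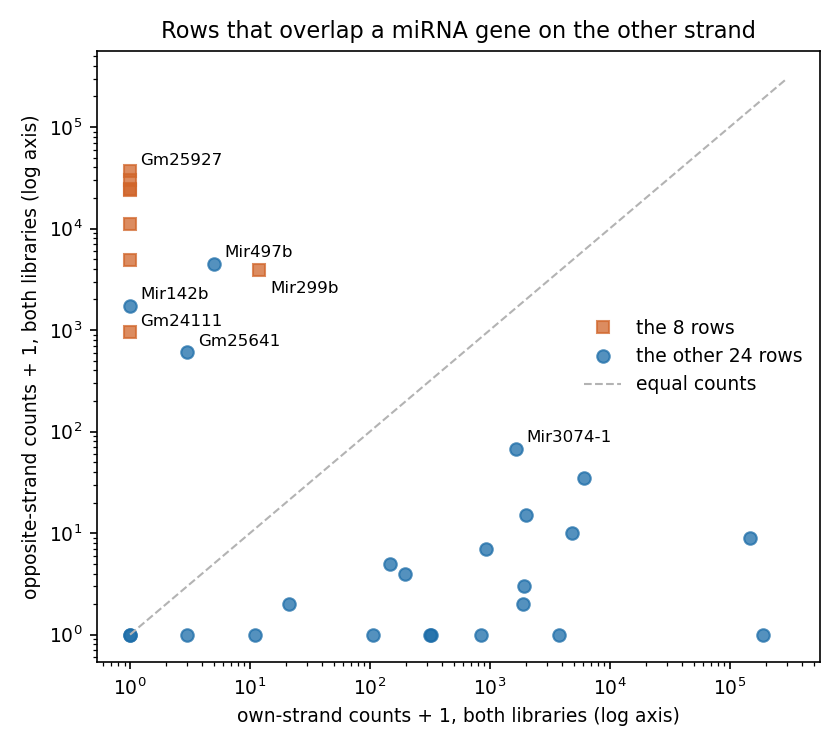
Own-strand counts (horizontal) and opposite-strand counts (vertical) plus 1, summed over both libraries on log axes, for the 32 rows that overlap a miRNA gene on the other strand; squares are the 8 rows, circles the other 24. The 8 squares and 3 circles lie far above the line of equal counts, and the only rows on that line are those with no count on either strand.

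With 1 group, the only test was between the 2 libraries. It was a two-sided exact binomial test of each row's counts against the libraries' totals, with Benjamini-Hochberg adjustment at 0.05 over all rows with at least 10 counts, and it covers counting error only. On the opposite strand 4 of 22 rows (18.2%) were lower in replicate 2 and 0 of 22 (0%) higher, by this exact binomial test; at an unadjusted p under 0.05 the counts were 5 and 0. Of the 8 rows, 3 were lower in replicate 2, none was higher and 5 passed neither way. Their median log2 ratio of replicate 2 over replicate 1 was -0.05, and that of all 22 rows, the 8 included, was also -0.05. With TMM scaling 6 of the 22 rows were lower. On the own strand 17.1% of 457 rows were lower (78) and 19.3% higher (88), with a median of 0.05. That balance moved with the scaling: 56 were lower and 125 higher when the most abundant gene, Mir99a, was left out of the totals, and 96 were lower and 72 higher with TMM.

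The row over Mir409 fell by 0.24 on the log2 scale (95% interval -0.28 to -0.21, adjusted p = 5.65e-47, exact binomial test). The row over Mir378a fell by 0.23 (-0.29 to -0.18, adjusted p = 1.15e-16, exact binomial test), and that over Mirlet7e fell by 0.08 (-0.11 to -0.05, adjusted p = 1.84e-06, exact binomial test). The call for Mirlet7e was lost when Mir99a was left out of the totals (-0.02, adjusted p = 0.517, exact binomial test). The other 5 rows had log2 ratios from -0.06 for Mirlet7f-1 to 0.03 for Mir299a, and all 5 lay above 0 without Mir99a, from 0.0024 for Mirlet7f-1 to 0.09 for Mir299a. With TMM scaling Mir191 (-0.06) and Mir376a (-0.08) were also called lower, which made 5 of 8.

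A comparison chosen after the data were seen set 7 of the 8 loci against their neighbours on the same strand within 10 kb, with at least 10 counts, by Fisher's exact test of the counts by library, which needs no library scaling. Mir378a had no such neighbour. Over 57 pairs, with adjustment over these, 30 differed in their library ratio. The pairs are not independent: Mir380 and Mir299a had the same 13 neighbours, and Mir376a shared several of these. How often pairs of other rows differ was not tested, so the count cannot be read as particular to these loci. Mirlet7e differed from both genes it is clustered with: Mir99b (95 bases away, 21918 ± 1284 CPM) and Mir125a (368 bases away, 5387 ± 966 CPM) were higher in replicate 2, by 0.12 and 0.37 on the log2 scale. The log2 ratio of Mirlet7e was below that of Mir99b by a difference of -0.20 ± 0.016 (SE, adjusted p = 5.14e-32, Fisher's exact test). Against Mir125a the difference was -0.45 ± 0.020 (SE, adjusted p = 3.54e-109, Fisher's exact test). Mir191 likewise lay below Mir425, with a difference of -0.22 ± 0.033 (SE, adjusted p = 2.40e-10, Fisher's exact test).

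In the chromosome 12 cluster the ratios of Mir409 differed from 7 of 12 neighbours, lying below 6 and above 1. Mir409 lay above Mir541 by 0.17 ± 0.026 (SE, adjusted p = 5.46e-10, Fisher's exact test) and below Mir369 by a difference of -0.10 ± 0.020 (SE, adjusted p = 1.46e-05, Fisher's exact test). Mir376a differed from 8 of 14 neighbours, lying above 5 and below 3. It lay above Mir487b by 0.17 ± 0.020 (SE, adjusted p = 5.13e-15, Fisher's exact test). Mir380 differed from 6 of 13 neighbours, lying above 4 and below 2. Mir299a differed from 5 of 13, lying above 4 and below 1. For neither was a difference from Mir411, the highest neighbour of both, called, at -0.01 ± 0.044 and 0.06 ± 0.049 (SE). Of the cluster's own-strand rows, 30 were tested between libraries, of which 5 were higher in replicate 2 and 11 lower; their median log2 ratio was 0.0046. Of the 10 let-7 family rows 9 were lower and 1, Mirlet7b, was not called, with a median of -0.24. Mirlet7f-1, at -0.06, lay above Mirlet7a-1, 262 bases away, by 0.25 ± 0.11 (SE, adjusted p = 0.0465, Fisher's exact test). Against its other neighbour, Mirlet7d, the difference of 0.18 ± 0.094 was not called (SE, adjusted p = 0.117, Fisher's exact test).

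**Figure D4:**
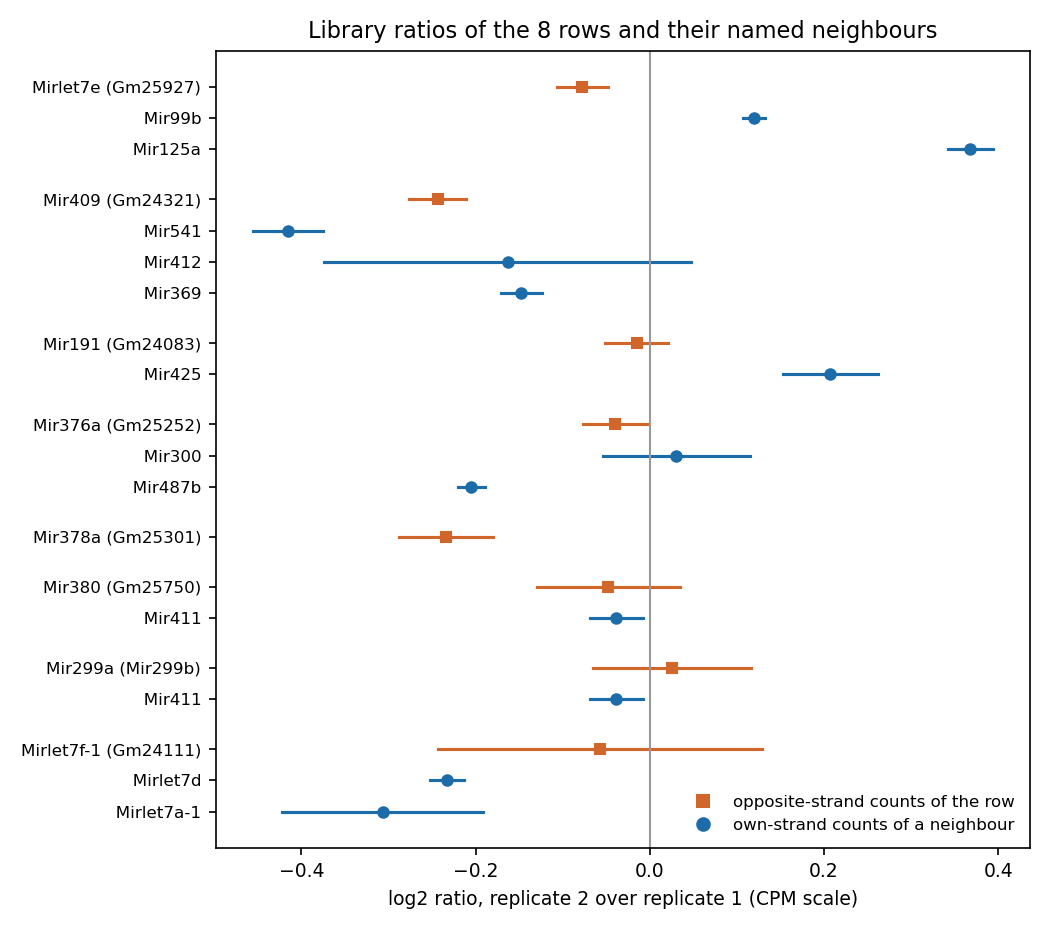
Log2 ratio of replicate 2 over replicate 1, with 95% intervals for counting error, for the 8 rows (squares, under the name of the overlapped gene) and named neighbours with at least 100 counts (circles). Mir99b, Mir125a and Mir425 lie above 0 while Mirlet7e, next to the first pair, lies at -0.08.

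As a check of the tissue, 8 of 11 neuron-enriched miRNA rows had at least 10 counts in each library, and the list summed to 16078 CPM in replicate 1 and 15366 in replicate 2. Neural progenitor rows, 3 for 4 listed genes, summed to 5722 and 6843 CPM. Mir9-1, also listed, had no row of its own and faces Gm25641. Oligodendrocyte rows summed to 421 and 462 CPM, and the endothelial row stood at 15856 and 16377 CPM. Reads that match more than 1 locus entered none of the marker sums, so the lists cannot be ranked against each other by level. Erythroid rows summed to 140 and 165 CPM, immune rows to 164 and 167 CPM and mural rows to 3354 and 3672 CPM. Muscle rows summed to 61.4 and 53.6 CPM, with Mir133a-1 and Mir133a-2 at 0, the liver row stood at 65.6 and 88.6 CPM, and rows of the posterior body summed to 327 and 418 CPM, with Mir196a-1 at 0. The part of these differences in the library ratios above was not tested.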

How the data were processed

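The authors deposited whole-number read counts per miRNA gene, with no normalization, on either strand and on each strand. Per the deposited README text the counts rest on mm10 with GENCODE M4. The aligner, counter and strand setting were not given in the sources used. The strand columns carry no names. The one that sums to more was read as a row's own strand. The 4 rows that name no gene were left out of totals. By the either-strand column, the no-feature row held 2.42% of replicate 1 and 2.53% of replicate 2, the unmapped row 14.3% and 18.2%, the multi-mapping row 44.6% and 42.4%, and the ambiguous row 0. The 8 rows, the gene lists and the tests were chosen with earlier results of these data known. Symbols, hosts and coordinates came from GENCODE M21, which is on the same build, by identifier without its version; 1894 of 1973 rows matched. Sequences came from its transcripts and from RefSeq.

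Genes named besides the 8 rows and the genes they overlap were neighbours within 10 kb (where over 4, the nearest on each side, the highest and the lowest), the let-7 family, up to 5 of the other mainly opposite-strand rows, of which there were 3, and those around the lowest of the 8, and the genes next in level. Mir7654 was named after its value was seen. Mir378b, Mir378c, Mir378d, Mir203 and the marker rows at 0 come from the lists and orders described.

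CPM used own-strand totals. Log2 ratios had 0.5 counts added to each library. Since there was no contrast between groups, edgeR's quasi-likelihood test could not be used, and the exact binomial test compares 2 libraries, not conditions. It was run on simulated counts that held counting error only, so that run does not cover spread between pools. Alternatives were TMM (edgeR 4.0.16) and DESeq2 1.42.0 size factors, other totals and count minimums, and leaving out each library. Tests ran in scipy 1.17.1 and folds in RNAfold 2.7.2. The labels do not say whether the pools shared a litter, a day or a batch. The p-values allow for counting error only and not for spread between pools.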

Additional observations from a re-analysis of the deposited data

How the results depend on the processing

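The summed level of the 8 rows was 21050 CPM when Mir99a was left out of the totals and 5511 CPM when scaled to all reads of the file, against 14807 CPM. Leaving out each replicate in turn gave 14270 to 15345 CPM. The number of the 8 rows called lower in replicate 2 was 5 with TMM, 4 with DESeq2 size factors and 2 without Mir99a, against 3. Relative to the totals used, these scalings moved every log2 ratio by -0.04, -0.03 and 0.06. The number of mainly opposite-strand rows was 11 with a minimum of 100 counts, with a share above 90% and without either replicate, and 15 with a minimum of 1. Of the 57 neighbour pairs 30 differed, and 29 with a minimum of 100 counts, an alternative chosen after the data were seen. None of the 3 rows of the 8 that were called lower in replicate 2 changed direction under the alternatives run. For own-strand rows only the numbers called were compared. Among the 8, ratios that were not called could change sign: without Mir99a that of Mir191 was 0.04. No paired analysis was possible because there is only 1 group. A negative binomial comparison of the libraries was not run, since 1 library a side leaves no spread to estimate. With 2 libraries the SDs are imprecise, and intervals cover counting error only.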
